A study of Mus musculus with 4 samples.

Results

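The tumor suppressor p53 and 9 of its direct target genes were followed across the cells of DLA tumors grown in mice. The 10 genes were taken by symbol from the 32285 genes of the count tables: Trp53 (ENSMUSG00000059552), which encodes p53, and Cdkn1a (ENSMUSG00000023067), Mdm2 (ENSMUSG00000020184), Ccng1, Phlda3 (ENSMUSG00000041801), Sesn2, Eda2r, Trp53inp1, Gdf15 and Zmat3. All 10 symbols were present. The data were 4 single-cell RNA-seq libraries made with the 10x 3′ chemistry from digested tumors with the red blood cells lysed, 2 from control mice that the labels call untreated and 2 from mice that received SP11, an inhibitor of the chaperone HSP90. Per the study's methods the hosts were Swiss albino mice injected in the peritoneum with DLA cells (Dalton's lymphoma ascites, a transplanted mouse tumor line kept by passage), and SP11 was given by mouth at 30 mg/kg for 17 days. The age of the hosts is not given here, and no allele was changed in either group. The hosts keep their own immune cells, so each library holds cells of the transplanted line together with host cells. The libraries are called Control 1 and Control 2, followed by Treated 1 and Treated 2.

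In unstressed cells p53 protein is kept low because Mdm2, itself a p53 target, attaches ubiquitin to it and sends it to the proteasome. Damage or oncogenic stress frees p53, mostly through changes of the protein and not of its mRNA, and p53 then binds paired decamer sites and raises the transcription of its targets. Cdkn1a encodes p21, an inhibitor of cyclin-dependent kinases that halts the cell cycle, while Mdm2 and Ccng1 feed back on p53. Phlda3 restrains Akt, Sesn2 restrains mTORC1, and Trp53inp1 promotes cell death and autophagy. Zmat3 is an RNA-binding protein, Eda2r is a receptor, and Gdf15 is a secreted stress cytokine. Several of these genes, Cdkn1a among them, also respond to other inputs such as growth factors and differentiation. HSP90 helps fold many signaling proteins, including mutant forms of p53. The counts hold mRNA molecules only, and they read neither the p53 protein nor the sequence of the Trp53 transcript.

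The promoter windows show where the p53 recognition letters stand in front of the 2 members on which the results below turn most, Cdkn1a and Mdm2. RefSeq windows on GRCm38.p6, from 250 bases before to 50 bases after each annotated start, were on hand for 8 of the 10 members, with 10 windows in all (Trp53inp1 and Zmat3 had no entry). Each window was searched for the p53 site by name, that is for 2 abutting decamers with the 4 core bases of each intact and at most 1 other base off. The site is palindromic, so that one search covers both strands. It was found in 18 of 32851 promoter windows (0.0548%) and in 1 of the 10 windows of the members, the upstream window of Cdkn1a at chr17:29090729-29091028 on the plus strand. The site, in capitals, lies at chr17:29090928-29090947, is 1 base off, and stands before the start.

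Cdkn1a, upstream start: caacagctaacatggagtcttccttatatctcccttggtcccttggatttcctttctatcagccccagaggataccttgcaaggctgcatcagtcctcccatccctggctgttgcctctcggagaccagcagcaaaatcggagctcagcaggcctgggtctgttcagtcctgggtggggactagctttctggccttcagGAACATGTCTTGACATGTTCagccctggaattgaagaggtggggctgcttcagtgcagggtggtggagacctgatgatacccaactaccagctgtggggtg

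The other Cdkn1a window, at chr17:29093519-29093818, held none. A single decamer is a much weaker mark, held by 2745 of all windows (8.36%), by 4 of the 10 windows of the members and by 12 of 60 windows (20%) of the other p53 pathway genes. The Mdm2 window at chr10:117710709-117711008 on the minus strand held 1 such decamer, again in capitals, and those of Trp53 and Ccng1 held 1 each.

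Mdm2: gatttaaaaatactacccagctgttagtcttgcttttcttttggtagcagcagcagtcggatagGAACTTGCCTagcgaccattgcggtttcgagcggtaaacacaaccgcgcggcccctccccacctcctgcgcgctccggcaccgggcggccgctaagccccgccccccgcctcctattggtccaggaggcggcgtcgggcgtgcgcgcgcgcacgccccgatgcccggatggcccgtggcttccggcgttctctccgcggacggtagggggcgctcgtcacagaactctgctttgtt

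These matches describe letters within 300 bases and not binding. The known sites of many p53 targets lie in introns or farther upstream, outside such windows.

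The libraries held 9827816, 9646197, 13406925 and 13632163 UMIs (unique molecular identifiers, counted molecules) in the order in which they were just named, and 916, 566, 1831 and 1091 cells had at least 200 genes and at most 10% mitochondrial UMIs. Tumor cells were taken as cells with at least 5 UMIs of Krt8 and Krt18 together, which gave 845, 528, 1256 and 582 cells with a median of 10935, 17214, 8892 and 19843 UMIs per cell. Immune cells were taken as cells with at most 1 keratin UMI and at least 3 UMIs of a class's markers: 28, 16, 201 and 124 macrophages and monocytes, 0, 0, 123 and 125 B cells, 7, 1, 6 and 61 T and NK cells, and 3, 0, 16 and 45 neutrophils. Their cells were shallow, with medians of 955 to 2295 UMIs in the macrophage class and 824 and 1582 in B cells. The line is labeled a lymphoma, but its cells went against that label. A list of 12 epithelial genes outside the gate summed to 1793 to 2810 CPM (UMIs per 1000000 of the class's sum) in tumor cells, with Cldn3 and Cldn7 among its genes at 0, while 12 lymphocyte markers summed to only 17.9 and 18.1 CPM in control libraries against 126 and 72.7 CPM after SP11. The same lymphocyte list reached 15549 and 14369 CPM in the B cells. The gated cells are therefore called tumor cells, by their keratins. Signs of other cells were more frequent in the treated tumor cells: 9.35% and 19.5% of the control and 24.4% and 33.7% of the treated tumor cells had at least 3 immune marker UMIs, and hemoglobin RNA summed to 267 and 178 CPM against 10605 and 4735 CPM. Their part in the results was not tested beyond the values without those cells that are given below. Of 4353 distinct cell barcodes, 896 (20.6%) occurred in more than 1 library, and the first and last 8 bases of the barcodes took 192 values each. The study's methods name 2 independent sets of samples, and its supplement speaks of biological replicates. Neither they nor the labels say whether the 2 libraries of a group came from separate mice. All tests below therefore measure the spread between libraries.

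In the tumor cells at rest, that is in the controls, 8 of the 10 members were detected and Eda2r and Gdf15 were not. Cdkn1a held 735 and 774 UMIs in Control 1 and Control 2, or 76.2 and 81.7 CPM (78.9 ± 3.87, mean ± SD, n = 2). Phlda3, the Akt repressor, held 48.2 and 36.2 CPM (42.2 ± 8.50). Both rested on at least 343 UMIs in every library.

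Trp53 itself held 17.4 and 17.6 CPM in the controls, from 168 and 167 UMIs. Mdm2, the ubiquitin ligase, held 6.53 and 6.54 CPM. Its 2 control values differed by far less than their counting error, with a 95% Poisson interval of 5.44 to 7.79 CPM for the pooled controls. Ccng1, encoding cyclin G1, held 10.5 and 8.55 CPM. The 3 members in the lower range were Sesn2 at 3.63 and 3.27 CPM, Zmat3 at 2.18 and 3.27 CPM, and Trp53inp1 at 1.24 and 1.48 CPM. These are 3′ UMI counts not scaled for length, and no order between genes is read from them.

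Eda2r had no UMI in any tumor cell of any library, which allows up to 0.157 CPM in the pooled controls. Gdf15, the stress cytokine, also had none in the controls and a single UMI in Treated 2. Intervals and such limits cover counting error only.

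**Figure D1:**
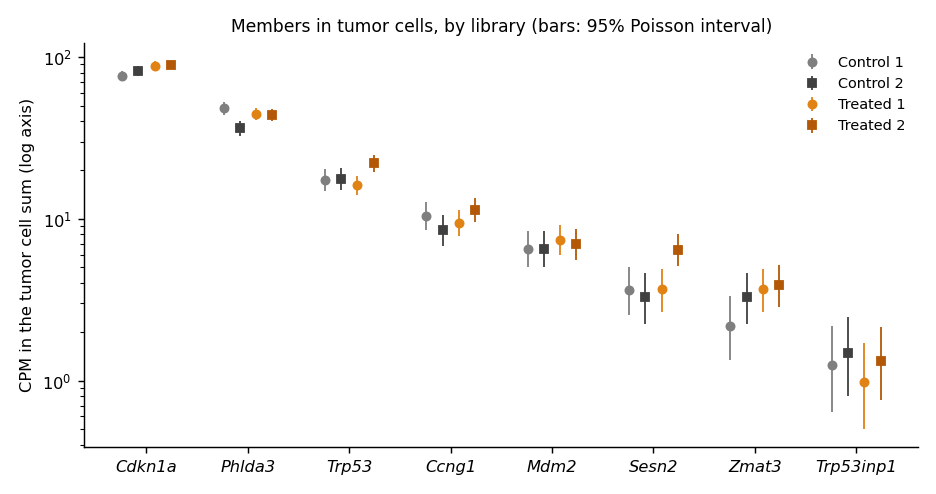
CPM in the summed tumor cells of each library (log axis) for the 8 detected p53 genes, with 95% Poisson intervals that cover counting error only. For Sesn2 Treated 2 (6.43 CPM) stands above the other 3 libraries (3.27 to 3.66 CPM); Cdkn1a runs from 76.2 to 89.0 CPM and Mdm2 from 6.53 to 7.41 CPM over the 4 libraries.

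After SP11 none of the members changed in the tumor cells by edgeR's quasi-likelihood test on the summed UMIs (Benjamini-Hochberg adjusted p under 0.05). Of 11588 genes tested, 268 (2.31%) were called, 210 higher and 58 lower, and of the 8 members tested 0 were called. An unadjusted p under 0.05 was reached by 0 of the 8 in edgeR, and DESeq2 called 0. The median log2 fold change of the 8 members was 0.01, beside -0.00 over all tested genes.

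Cdkn1a held 88.5 and 89.0 CPM in Treated 1 and Treated 2, both above the 2 controls at 76.2 and 81.7. The libraries did not overlap, but the fitted log2 fold change was 0.04 (SE 0.12, edgeR adjusted p 0.90). The fitted change is smaller than the ratio of the CPM because edgeR's TMM factors rescale the libraries for the makeup of their RNA.

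Trp53 held 16.1 and 22.1 CPM after SP11, one library below and one above both controls (log2 fold change -0.01, SE 0.16, edgeR adjusted p 0.99). Mdm2 held 7.41 and 7.01 CPM (0.02, SE 0.20, adjusted p 0.98). Ccng1 held 9.44 and 11.4 CPM, overlapping the controls (-0.00, SE 0.18). For p53 and these 2 targets that feed back on it, the fitted changes were smaller than 1 SE.

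Phlda3 held 44.5 and 43.9 CPM, between the 2 controls (-0.06, SE 0.15). Zmat3 held 3.66 and 3.87 CPM against 2.18 and 3.27 (0.34, SE 0.29, edgeR adjusted p 0.64). Trp53inp1 held 0.977 and 1.32 CPM from 12 and 16 UMIs (-0.37, SE 0.43). Sesn2, a stress-induced brake on mTORC1, gave the most positive fitted value, and a single library carried it.

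Sesn2 held 3.66 and 6.43 CPM after SP11, with Treated 1 at the level of the controls and Treated 2 above them. Its log2 fold change was 0.41 (SE 0.28, edgeR adjusted p 0.53). It was 0.01 without Treated 2 and 0.72 without Treated 1, and neither passed the test.

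**Figure D2:**
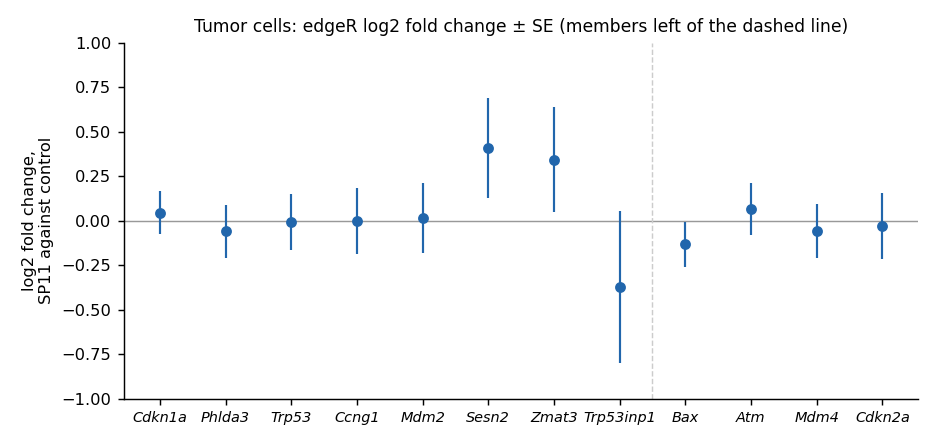
Log2 fold change of SP11 over control in tumor cells (edgeR, error bars ± 1 SE) for the 8 tested p53 genes and for Bax, Atm, Mdm4 and Cdkn2a. None of the 12 passed the test; Cdkn1a sits at 0.04 and Sesn2 at 0.41.

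The wider pathway was read from 52 other genes: 12 regulators of p53, 10 targets acting in cell death, 13 in arrest and signaling, and 17 in repair and metabolism. Of these 45 could be tested in tumor cells and 0 passed, with 21 of 45 fitted above 0 and 5 at an unadjusted p under 0.05 in edgeR. With the replicate number as a block, 3 were called higher (Btg2, Foxo3 and Hipk2) and 1 lower (Plk2), beside 5.64% and 3.31% of all tested genes. Without Control 1 or without Treated 2, 1 was called, Btg2 each time. Mdm4, a relative of Mdm2 that binds p53, held 19.4, 19.2, 21.2 and 19.2 CPM in the libraries in the same order. The Cdkn2a locus, whose products p16 and p19Arf are counted together here, held 7.77, 7.70, 8.22 and 8.33 CPM. The death effector Bax held 218, 196, 208 and 205 CPM, and the damage kinase Atm 18.5, 17.8, 20.1 and 21.4 CPM. None of these passed the test, with fitted log2 changes of -0.06 (SE 0.15) for Mdm4, -0.03 (SE 0.19) for Cdkn2a, -0.13 (SE 0.13) for Bax and 0.07 (SE 0.14) for Atm.

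The 2 pathway genes nearest to the threshold, picked out after their values were seen, were Btg2 and Foxo3. Btg2, an antiproliferative target, held 2.28 and 1.27 CPM in control libraries and 4.72 and 4.62 CPM after SP11 (log2 fold change 1.26, SE 0.32, edgeR adjusted p 0.051). Foxo3, a stress-response transcription factor, held 5.60 and 6.12 against 10.1 and 11 CPM (0.72, SE 0.19, adjusted p 0.057). Both stand higher in the macrophage class than in tumor cells (Btg2 at 127 to 341 CPM), and the share of tumor cells with immune marker UMIs was higher after SP11, as given above. Without the tumor cells that carried immune markers the log2 fold change of Btg2 was -0.05 (SE 0.42, edgeR adjusted p 0.98) and that of Foxo3 0.71 (SE 0.22, adjusted p 0.14).

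At the level of single cells, Cdkn1a was the member seen in most tumor cells. To put libraries of unlike depth on one footing, each tumor cell was thinned to 5000 UMIs, which kept 799, 511, 1151 and 575 cells. A Cdkn1a UMI was then found in 28.9% (95% exact binomial interval 25.8 to 32.2) and 29.4% (25.4 to 33.5) of control cells, and in 34.0% (31.2 to 36.8) and 34.6% (30.7 to 38.7) of treated cells. Both treated libraries lay above both controls, with means of 29.1% ± 0.313 and 34.3% ± 0.451 (SD, n = 2), a difference of 5.16 percentage points (exact permutation test, two-sided, p = 0.33, which 2 libraries against 2 cannot go below).

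Ccng1 (4.76% and 4.89% against 5.30% and 6.61%) and Zmat3 (1.5% and 1.37% against 2.09% and 2.26%) also had both treated libraries above both controls, so 3 of the 8 detected members lay apart upward and 0 downward. Of 17560 genes 4757 (27.1%) lay apart upward and 1501 (8.55%) downward, and the share of the members that lay apart upward was near that of all genes. The remaining 5 overlapped: Trp53 was found in 7.63%, 7.63%, 6.60% and 11% of cells, Phlda3 in 22.0%, 17%, 20.9% and 20.7%, and Mdm2 in 3.50%, 3.91%, 3.04% and 4.17%. Eda2r and Gdf15 were found in 0 cells, which allows a share of up to 0.375%, 0.587%, 0.261% and 0.522%.

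The Cdkn1a shares were also read without the tumor cells that carried the most immune marker UMIs. Without the cells with at least 3 immune marker UMIs, a setting added after seeing the data, the shares were 28.3%, 27.6%, 34.3% and 34.9%, a difference of 6.64 points. Cells with fewer such UMIs stayed in, and the part of immune RNA in the difference was not tested. In that setting 4 members lay apart, Ccng1 and Zmat3 again upward and Mdm2 downward (3.88% and 4.12% against 2.69% and 2.89%). The share of all genes that lay apart was not computed there, so this count has no background. Without thinning 0 members lay apart, with Treated 1 the shallowest and Treated 2 the deepest library.

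**Figure D3:**
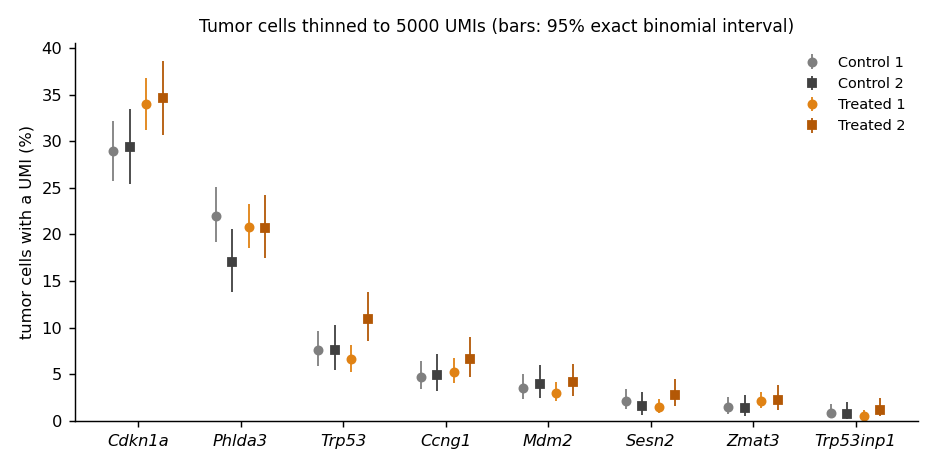
Percent of tumor cells, each thinned to 5000 UMIs, with at least 1 UMI of each p53 gene, by library, with 95% exact binomial intervals. For Cdkn1a the treated libraries (34.0% and 34.6%) lie above the controls (28.9% and 29.4%), while Trp53 and Phlda3 overlap.

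Whether the targets moved together from cell to cell was read by splitting the thinned tumor cells of each library into those with and those without a Cdkn1a UMI (231 and 568 cells in Control 1, 150 and 361 in Control 2, 391 and 760 in Treated 1, 199 and 376 in Treated 2). Of 8946 genes tested by edgeR within libraries, 53 (0.592%) were called, and of the 4 members that could be tested besides Cdkn1a 0 were called. An unadjusted p under 0.05 was reached by 0 of these 4 in edgeR.

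Phlda3 held 49.4 CPM in Control 1 cells with a Cdkn1a UMI and 50.7 CPM in those without, then 42.7 and 36.0 in Control 2, 45.0 and 46.6 in Treated 1, and 43.2 and 44.1 in Treated 2. The cells with the UMI were higher in 1 of 4 libraries, and the log2 difference was -0.01 (SE 0.12, edgeR adjusted p 0.99). Mdm2 gave 0.08 (SE 0.30), Trp53 0.12 (SE 0.19) and Ccng1 -0.17 (SE 0.24). Of the 40 other pathway genes tested 0 were called, among them Bax at -0.00 (SE 0.06), Mdm4 at 0.03 (SE 0.17), Atm at -0.14 (SE 0.18) and Cdkn2a at -0.30 (SE 0.29). With 1 UMI as the mark, many cells on the side without it can still express Cdkn1a, so a coupling weaker than these errors was not detectable at this depth.

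Cdkn1a stops the cycle, and its level was therefore read against mitosis. Tumor cells of each library were ranked by the share of their UMIs from 12 mitotic genes and cut into 3 equal parts, here low, middle and high, with cuts at 0.0569% to 0.0676% and at 0.141% to 0.157% of UMIs. Such a cut makes ranges of a score and no cell types, and 26 to 119 cells per library lay within 10% of a cut.

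Between high and low cells edgeR called 2376 of 10252 genes (23.2%), and 0 of the 7 members tested. Cdkn1a held 63.9 CPM in high and 70.8 CPM in low cells of Control 1, 71.2 and 74.7 in Control 2, 70.9 and 80.9 in Treated 1, and 78.7 and 74.6 in Treated 2. It was lower in the high cells of 3 of 4 libraries, by a fitted log2 difference of -0.15 (SE 0.07, edgeR adjusted p 0.12; 0.042 without Treated 2). Phlda3 gave -0.21 (SE 0.09, edgeR adjusted p 0.081; 0.048 without Control 1), but after thinning to 5000 UMIs its sign turned (0.048, adjusted p 0.89). The other members lay nearer to 0 or had wide errors: Trp53 0.01 (SE 0.13), Mdm2 0.14 (SE 0.22), Ccng1 -0.16 (SE 0.18), Sesn2 -0.15 (SE 0.30) and Zmat3 -0.10 (SE 0.31).

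Other genes of the pathway were called in this split, as were 23.2% of all tested genes. Their counts are therefore not read as particular to the pathway. Of 44 tested, 3 were higher in the mitotic-high cells (10.9% of all tested genes were) and 9 lower (12.3% of all). The 3 higher were Gtse1, a G2 and S phase protein that holds p53 in the cytoplasm (2.48, SE 0.33), Chek2, a checkpoint kinase (1.35, SE 0.27), and Mdm4 (0.33, SE 0.12, edgeR adjusted p 0.042). The Mdm4 call was lost without Control 1 (adjusted p 0.13), Control 2 (0.15) or Treated 1 (0.14), by DESeq2 (0.47), with no filter on low counts (0.061) and after thinning (0.27). The lower genes with the largest change were Cgref1 (-0.96, SE 0.26), Plk3 (-0.77, SE 0.10) and Sfn (-0.64, SE 0.04). Cgref1 lost its call by DESeq2 (adjusted p 0.16) and without Treated 2 (0.070 in edgeR). Sfn, which encodes 14-3-3 sigma, a p53 target that blocks entry into mitosis, held 198 CPM in high against 315 CPM in low cells of Control 1, 201 against 284 in Control 2, 256 against 367 in Treated 1 and 197 against 299 in Treated 2. It was lower in the high cells of every library. Atm was lower too (-0.37, SE 0.13, edgeR adjusted p 0.035), a call lost in 7 alternatives with adjusted p of 0.054 to 0.41, among them those without Control 2 (0.088), Treated 1 (0.10) or Treated 2 (0.29). Bax at -0.09 (SE 0.05) and Cdkn2a at -0.47 (SE 0.19) missed the threshold.

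The middle cells, looked at after these values were seen and given with no test, held the most Cdkn1a in all 4 libraries. The low, middle and high cells held 70.8, 94.2 and 63.9 CPM in Control 1 and 74.7, 101 and 71.2 CPM in Control 2. They held 80.9, 115 and 70.9 CPM in Treated 1 and 74.6, 113 and 78.7 CPM in Treated 2. Cdkn1a was the only one of 5 members with at least 200 UMIs to peak there in every library, as did 333 of 8736 genes (3.81%). Cells with more mitotic RNA were also deeper (medians of 9359, 10961 and 13349 UMIs in Control 1). After thinning to 5000 UMIs the middle cells were highest in 3 of 4 libraries, at 101 CPM against 64.7 and 70.6 in Control 2, 104 against 76.2 and 77.3 in Treated 1, and 99.5 against 97.4 and 67.0 in Treated 2, but at 74.2 against 75.9 and 63.9 in Control 1. After thinning, 113 of 5995 genes (1.88%) and 0 of 3 members with at least 200 UMIs peaked there in all 4 libraries. The share of genes that did so in 3 of 4 was not computed.

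**Figure D4:**
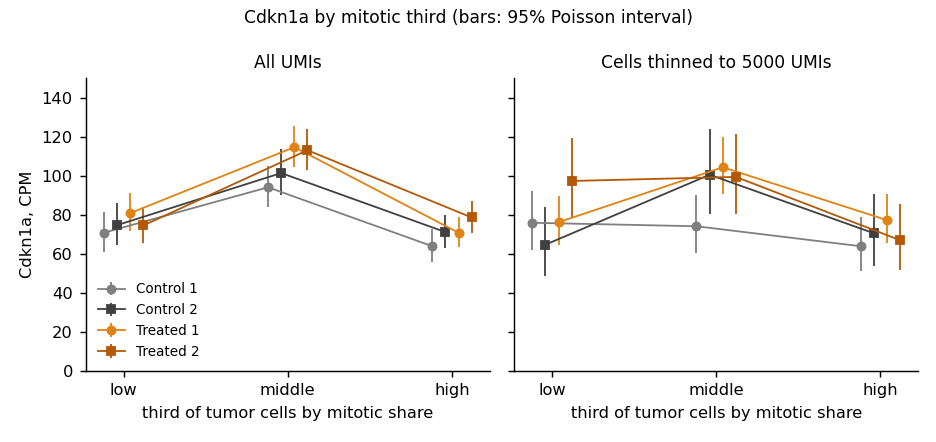
Cdkn1a in CPM in tumor cells with a low, middle or high share of mitotic UMIs, by library, as counted and after thinning each cell to 5000 UMIs, with 95% Poisson intervals. As counted the middle cells are highest in all 4 libraries (94.2 to 115 CPM); after thinning this holds in 3 of 4.

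Some members were called between the host immune cells and the tumor cells, where 28.2% to 63% of all tested genes were called, depending on the class. The counts of members are therefore not read as particular to them. The classes were set against the tumor cells in one edgeR fit over 11 sums of class and library with at least 20 cells (4 tumor, 3 macrophage, 2 B cell and 1 each for T and NK cells and neutrophils), in which 6393 genes and 6 members were tested. Ccng1, Zmat3, Gdf15 and Eda2r did not pass the filter on low counts. The 2 B-cell sums and the single sums of the last classes came from treated tumors only. Their differences from tumor cells were thus seen only after SP11, and whether they hold in controls was not tested. Tumor RNA free in the droplets can add to every class. The epithelial list stood at 7.65% to 14.3% of its tumor level in the macrophage class and at 7.03% to 10.2% in B cells, so a member within that range of its tumor level cannot be told from such background.

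Macrophages and monocytes held more Cdkn1a and Mdm2 than the tumor cells of the same library. Cdkn1a held 255, 213, 331 and 476 CPM in the class in the 2 controls and then the 2 treated libraries, from 12, 8, 72 and 117 UMIs, against 76.2 to 89.0 CPM in tumor cells. That was 334%, 261%, 374% and 534% of the tumor level within each library. The fitted log2 difference was 1.82 (SE 0.20, edgeR adjusted p 3.98e-19).

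Mdm2 held 84.8, 107, 64.3 and 122 CPM in the class against 6.53 to 7.41 CPM in tumor cells, though from 4 and 4 UMIs only in the controls and 14 and 30 after SP11. It stood at 1299%, 1628%, 869% and 1740% of the tumor level, above it in 4 of 4 libraries (log2 difference 3.38, SE 0.44, edgeR adjusted p 8.54e-14). Both genes stood far above the share of tumor RNA seen in these cells.

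Phlda3 went the other way, with 0, 1, 3 and 2 UMIs or 0, 26.6, 13.8 and 8.13 CPM against 36.2 to 48.2 CPM in tumor cells (-2.47, SE 0.55, edgeR adjusted p 1.76e-05). Trp53 itself held 21.2, 0, 36.8 and 24.4 CPM from 1, 0, 8 and 6 UMIs, overlapping the tumor cells (0.36, SE 0.48, adjusted p 0.53). Sesn2 (0.05, SE 1.10) and Trp53inp1 (1.45, SE 1.58) rested on 3 and 2 UMIs. So 2 of the 6 tested members were higher and 1 lower in the macrophage class, where 29.9% and 33.2% of all tested genes were. Gdf15 had 1, 0, 0 and 2 UMIs in the class.

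Of 28 other pathway genes tested in the macrophage class 12 were higher and 8 lower, beside 29.9% and 33.2% of all tested genes. The largest rises were in Pmaip1, which encodes the death protein Noxa (6.48, SE 0.81), Btg2 (5.76, SE 0.29) and the death receptor Fas (4.79, SE 0.99). Btg2 held 127, 160, 294 and 341 CPM, against 1.27 to 4.72 CPM in tumor cells. On the lower side Sfn, an epithelial gene as well as a p53 target, fell by 3.54 on the log2 scale (SE 0.31). Ddit4 and Ddb2 had 0 UMIs in the fitted sums and were at least 3.05-fold and 2.54-fold lower, with the limit taken as 3 counts over the class. Bax (-0.37, SE 0.21) and Mdm4 (-0.66, SE 0.57) missed the threshold.

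**Figure D5:**
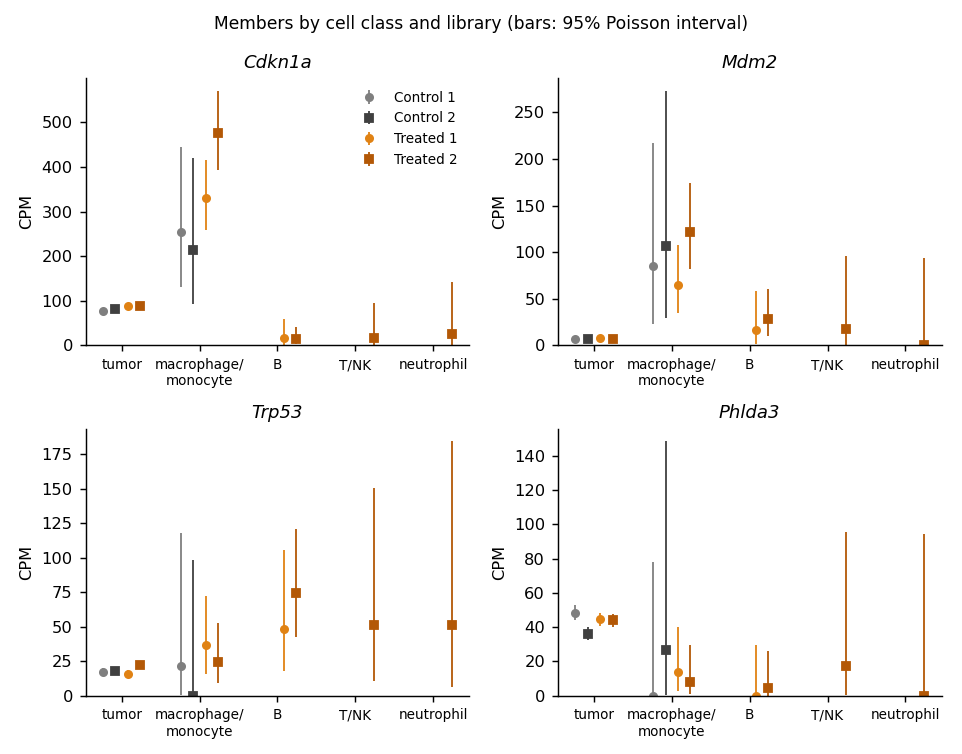
CPM of Cdkn1a, Mdm2, Trp53 and Phlda3 in the summed cells of each class and library, with 95% Poisson intervals. Cdkn1a and Mdm2 stand highest in macrophages and monocytes (213 to 476 and 64.3 to 122 CPM), Trp53 reaches 48.6 and 74.3 CPM in B cells, and Phlda3 stands highest in tumor cells.

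B cells showed another pattern, with more Trp53 and less Cdkn1a than tumor cells. Trp53 held 48.6 and 74.3 CPM in the B cells of Treated 1 and Treated 2, from 6 and 16 UMIs, against 16.1 and 22.1 CPM in the tumor cells of those libraries (log2 difference 1.68, SE 0.47, edgeR adjusted p 0.0010). The call was lost without Treated 2 (adjusted p 0.54) and among cells with at least 500 genes (0.075). Trp53inp1 held 8.09 and 27.8 CPM from 1 and 6 UMIs (3.99, SE 1.13, adjusted p 0.0013; 0.76 without Treated 2).

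Cdkn1a held 16.2 and 13.9 CPM from 2 and 3 UMIs, at 18.3% and 15.6% of the tumor level beside 10.2% and 7.03% for the epithelial list (-2.68, SE 0.51, edgeR adjusted p 1.06e-06). Phlda3 had 0 and 1 UMI (-3.92, SE 0.93, adjusted p 9.61e-05; 0.072 without Treated 2). Mdm2 held 16.2 and 27.8 CPM, above the tumor cells in both libraries, but missed the threshold (1.60, SE 0.75, adjusted p 0.064; 0.022 with up to 4 keratin UMIs allowed and 0.0498 by DESeq2). Sesn2 had 0 UMIs. In all 2 of 6 members were higher and 2 lower, where 23.1% and 26.8% of all tested genes were.

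Of the 28 pathway genes 7 were higher and 6 lower in B cells, beside 23.1% and 26.8% of all tested genes. Fas (5.23, SE 1.09), Pml, the scaffold of nuclear bodies that recruit p53 (4.05, SE 0.49; 121 and 135 CPM), and Btg2 (3.91, SE 0.48) led the higher ones. Sfn (-4.87, SE 0.48), Pmm1 (-2.59, SE 0.54) and Plk3 (-2.47, SE 0.85) led the lower. Without Treated 2 the edgeR calls of Fas (adjusted p 0.056), Btg2 (0.086), Pmm1 (0.068) and Plk3 (0.58) were lost. Plk3 was also lost without Treated 1 (0.11) and by DESeq2 (0.10). Bax was among the lower genes (-0.61, SE 0.26, edgeR adjusted p 0.043), but not by DESeq2 (0.32), without Treated 1 (0.57) or without Treated 2 (0.44). Mdm4 gave 0.77 (SE 0.55).

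For T and NK cells and for neutrophils only Treated 2 gave a sum of at least 20 cells. Each class was thus 1 sum with no replicate, and the test takes it to vary like the sums of the other classes, so its calls are no more than comparisons of that sum. Cdkn1a had 1 UMI in each, or 17.2 and 25.5 CPM, and was called lower than in tumor cells in both (-2.98, SE 1.02, edgeR adjusted p 0.017, and -2.79, SE 1.05, adjusted p 0.024), but DESeq2 called neither (0.24 and 0.37), and edgeR lost the neutrophil call without Treated 1 (0.058). It was the only one of 6 members that edgeR called in either class, while DESeq2 called Trp53inp1 higher in neutrophils, from 2 UMIs (5.47, adjusted p 0.0058). In these classes 16.9% and 26.9% of all tested genes were lower and 11.3% and 12.9% higher. Trp53 had 3 and 2 UMIs, or 51.5 and 51.0 CPM.

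Of the 28 pathway genes 4 were higher and 3 lower in T and NK cells, beside 11.3% and 16.9% of all tested genes. The higher ones were led by Pmaip1 (6.59, SE 1.67), Fas (5.27, SE 2.12) and Tap1 (4.76, SE 1.07). The lower ones were led by Usp7 (-3.08, SE 1.04) and Sfn (-2.59, SE 0.65). In neutrophils 4 were higher and 5 lower, beside 12.9% and 26.9% of all tested genes. Fas (7.04, SE 1.44), Btg2 (5.14, SE 0.70) and Gadd45a (4.38, SE 1.44) led the higher ones there and Sfn (-3.98, SE 0.88) the lower. Pmm1 had 0 UMIs in both classes, at least 1.71-fold and 1.15-fold below tumor cells. Bax fell by 1.86 on the log2 scale in neutrophils (SE 0.62) and gave -0.88 (SE 0.49) in T and NK cells, while Mdm4 missed the threshold in both (-0.51, SE 1.52, and 1.61, SE 0.89). Several of these single-sum calls were lost in an alternative. DESeq2 lost Sfn in both classes (adjusted p 0.20 in each), Usp7 in T and NK cells (0.22) and Bax in neutrophils (0.43). Fas in T and NK cells was lost in edgeR without Control 1 (0.056) or Treated 1 (0.091), with no filter (0.17) and with 2 marker UMIs as the minimum (0.051).

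A change of the macrophage class with SP11 could be fitted only with up to 4 keratin UMIs allowed per cell, which gave 36, 22, 219 and 136 cells, since Control 2 held 16 under the gate used above. Cdkn1a then held 271, 148, 311 and 471 CPM in the controls and then the treated libraries, from 17, 9, 81 and 132 UMIs. The treated libraries lay above the controls, by a log2 fold change of 0.83 (SE 0.36), but the edgeR adjusted p was 0.15. The value passed without Treated 1 (1.26, adjusted p 0.010) and was 0.40 without Control 2.

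Mdm2 held 79.7, 65.7, 65.2 and 128 CPM, overlapping between the groups (0.35, SE 0.57, edgeR adjusted p 0.79). Of 2523 genes 211 (8.36%) were called in this class, and 0 of the 2 members tested, with Cdkn1a at an unadjusted p of 0.027 in edgeR. The SP11 change of Cdkn1a in macrophages minus that in tumor cells was 1.01 (SE 0.36, adjusted p 0.22), in a fit that called 109 of 11505 genes (0.947%) and 0 of 7 members. A change of Cdkn1a confined to one class was thus not shown.

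Genes whose level over the 11 sums was most like that of a member were named by Pearson's r of log2(CPM + 1) among 8948 genes, as a description over sums that share libraries and differ in depth. For Cdkn1a these included Lhfpl2 (0.98), Frmd4b (0.98), Tmem86a (0.97) and Znhit1 (0.96). For Trp53 they were 4930523C07Rik (0.95), Add1 (0.94), Rnf2 (0.94), Cd37 (0.94) and Mef2d (0.94).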

How the data were processed

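The authors deposited whole-number counts of UMIs per gene and cell barcode for each library. The submitters' processing notes name Cell Ranger 7.1.0 and mm10; the study's methods name hg38, while the gene identifiers of the tables are those of mouse. No doublet removal is stated.

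Cells with at least 200 genes and at most 10% mitochondrial UMIs were kept, classed by summed keratin and marker UMIs (immune classes also with at most 10% hemoglobin UMIs), and summed per library and class. Sums of at least 20 cells were tested with edgeR 4.0.16 (TMM, filterByExpr, quasi-likelihood test, Benjamini-Hochberg adjustment over all genes tested) in R 4.3.3. Splits within tumor cells were fitted with the library as a term. DESeq2 1.42.0 was the alternative test. Cells were read with Python 3.11.15 and scanpy 1.11.5, and thinned to 5000 UMIs with numpy 2.4.6. Exact intervals and exact permutation tests used scipy 1.17.1. The edgeR step was tested on simulated counts with known changes. With 2 libraries per group, the precision is that of 1 difference between pairs, beside depths of 9646197 to 13632163 UMIs.

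All 10 members were named in each comparison. Of 52 other pathway genes, Mdm4, Cdkn2a, Bax and Atm were always named, with up to 3 called genes of each direction by size of change, and the rest counted; Cdkn2a and Atm did not pass the filter of the class comparison. Exceptions are stated where they occur, and some items are not reported here. Aen, called lower in neutrophils, had no UMI in the fitted sum and gets no fold. The members and gene lists were chosen with earlier results of these data known.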

Additional observations from a re-analysis of the deposited data

How the results depend on the processing

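Over the alternatives run, 766 values of single genes were labeled the same, 42 lost a call, 8 gained one and 15 changed sign, while 117 counts stayed within 1.5 times and 37 did not. A value labeled the same kept its side of the threshold. It kept its sign too, or turned it by no more than the SE of the main value (for shares, the SD of the libraries within groups). Such small turns are not among the 15. No alternative called a member between SP11 and control tumor cells. With 2 libraries per group, and 16 to 28 control macrophages, small changes were not detectable. The cause of the changes below was not tested.

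Genes called between SP11 and control tumor cells (268) came to 149 by DESeq2, 1038 with the replicate block, 144 without tumor cells carrying immune markers, 136 after thinning to 5000 UMIs, and 77 to 425 when 1 library was left out. The replicate block called 0 members and changed no call on a member. It called 4 of 45 other pathway genes, beside 8.96% of all genes tested. The labels share only a number between groups: Control 1 and Treated 1 deviated together with r = 0.24 over 8736 genes, and 2 pairs do not show that the numbers pair mice. In the macrophage class 211 became 107 by DESeq2 and, with 1 library left out, 139, 110, 122 and 85 (Control 1, then Control 2 and each treated library), with 0 to 1 members called; the difference between its change and that of tumor cells went from 109 genes to 72 without Control 1, 66 without Control 2, 0 without Treated 1 and 6 without Treated 2. Against tumor cells, B cells gave 966 to 3316 genes (main 3188) and 1 to 4 members with 1 library left out, and 2 members at 500 genes per cell. T and NK cells gave 990 genes and 0 members by DESeq2 (main 1800 and 1) and 1195 to 1866 genes with 1 library left out. Neutrophils gave 1444 genes by DESeq2 (main 2544) and 0 to 1 members with 1 library left out. The split by a Cdkn1a UMI (53 genes) gave 17 by DESeq2, 564 without thinning, 126 at 10000 UMIs and 21 to 51 with 1 library left out. The mitotic split (2376) gave 980 by DESeq2 and 1148 after thinning, with 0 to 1 members called with 1 library left out. Members whose shares lay apart (3) became 0 without thinning, 0 at 2 or more UMIs per cell, and 4 to 7 with 1 library left out. Leaving out 1 library sets a single library against 2, where shares lie apart more readily than with 2 against 2. The share of all genes that lay apart was not computed in these settings, so these counts have no background and say nothing specific to the members.

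Signs turned by more than that SE or SD as follows, none of them past the threshold. Smaller turns of sign are not listed. Between SP11 and control tumor cells, Trp53 ranged from -0.19 to 0.16 and Phlda3 from -0.27 to 0.18 with 1 library left out, and after thinning Sesn2 gave -0.033, Mdm4 0.17 and Bax 0.018. In the split by a Cdkn1a UMI, Ccng1 ranged from -0.37 to 0.14 with 1 library left out, while without thinning and at 10000 UMIs Cdkn2a gave 0.19 and 0.029 and Atm 0.21 and 0.11. In the mitotic split after thinning, Phlda3 gave 0.048 and Cdkn2a 0.28. In the shares, Mdm2 gave 1.43 points without thinning, Ccng1 -0.014 at 2 or more UMIs and Zmat3 -0.048 at 2000 UMIs.

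Leaving out cells called doublets by Scrublet was not run: the caller marked 87.7% of the cells of Control 1, against 0.164% to 5.30% in the other libraries.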
